A study of Mus musculus with 2 samples.

Results

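The genes described here are 40 genes of protein folding in the endoplasmic reticulum (ER) and of the unfolded protein response, matched by symbol in the deposited tables. They are a list of gene names, and all 40 were found among the 24421 genes of the tables. Messenger RNA had been sequenced from 3T3-L1 cells, a clonal mouse preadipocyte line that turns into fat cells under hormones, in 1 culture that received DF, a mixture of several herbs that the sample title calls DF-GA70, and in 1 untreated control culture. Both libraries came from cells of passages 10 to 13, whose strain background the labels give as C57BL/6, although the line is known to descend from Swiss mouse embryo cells. Both cultures had been differentiated with insulin (1 µg/mL), IBMX (0.5 mM) and dexamethasone (0.25 µM) for 2 days and with insulin afterwards, so the controls carry the hormonal induction as well. DF was present until harvest; its dose, its first day and the harvest day are unknown here. With 1 library per group, no value below has a replicate error, no test was run, and differences are sizes only.

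Proteins that enter the ER are threaded through the translocon, bound by chaperones, joined by disulfide bonds and, if they fail to fold, pulled back to the cytosol and degraded. When unfolded protein builds up, the sensors IRE1, PERK and ATF6 raise the transcription of chaperone and degradation genes and slow translation through the integrated stress response. Fat cells secrete adiponectin, adipsin and matrix proteins, and XBP1, the factor downstream of IRE1, is known to be needed for adipocyte formation in this cell line.

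The ER folding genes were close to equal in the DF and control libraries. Of the 40 genes, 34 reached a floor of 8.18 on the deposited log2 scale, the median of all non-zero values, and each of these 34 reached it in both libraries. Only Manf was at least 1.5-fold higher with DF (1 of 34, 2.94%) and only Atf6 was at least 1.5-fold lower (1 of 34, 2.94%). Among all 6761 genes examined, 10.2% were at least 1.5-fold higher and 10.9% at least 1.5-fold lower. The share of folding genes past the limit was smaller in both directions. It rests on 1 gene in each direction, too few to stand apart from the background. The sets also differ, since the 34 folding genes reached the floor in both libraries, while a gene was examined if it did so in at least 1. None of the 34 differed by 2-fold, against 5.77% of all genes. The folding genes are mostly abundant, and abundant genes differ less. Among genes with a mean level of at least 10, 1 of 26 folding genes was higher and 0 of 26 lower at 1.5-fold. The shares over all 3008 such genes were 6.42% and 6.95%, and 26 genes are too few to stand apart from them. Within 0.32 log2 units in either direction lay 67.6% of the 34 folding genes, against 51.6% of all genes examined. At a mean level of at least 10 the shares were 65.4% and 59.3%. The median difference of the 40 genes, DF minus control, was -0.01 log2 units, beside 0.04 over all 11744 genes above 0 in both libraries. The SD of the difference across the 34 genes was 0.33 log2 units, beside 0.54 across all genes examined. At a mean level of at least 10 the SD was 0.34 across the 26 folding genes and 0.41 across all genes. These are descriptions of a pair of libraries; without a replicate they cannot be set against the spread between cultures.

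**Figure D1:**
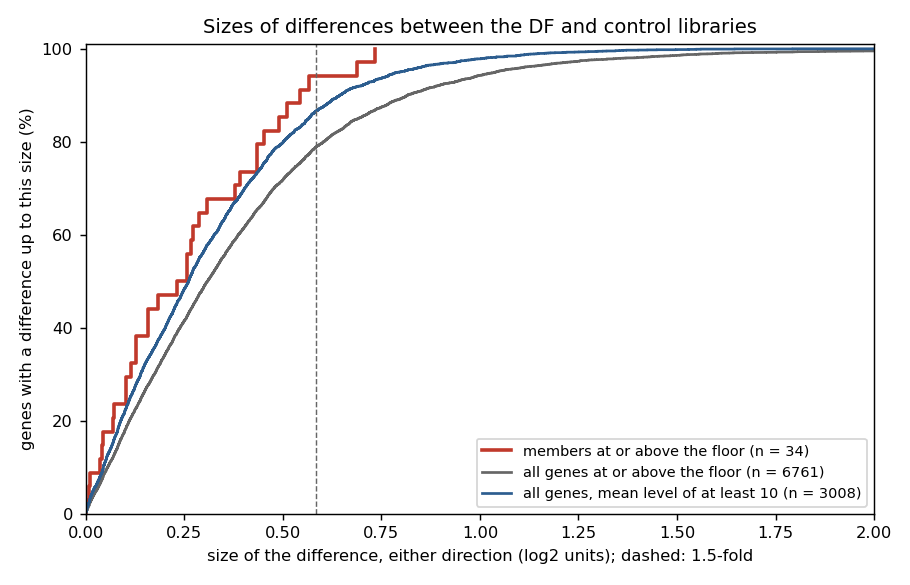
Size of the difference between the DF and control libraries in log2 units (x axis, either direction) against the percentage of genes with a difference up to that size (y axis), for the 34 folding genes at or above the floor, for all 6761 genes examined and for 3008 genes at a mean level of 10 or more. The curve of the folding genes reaches 94.1% at the dashed line of 1.5-fold, where all genes examined reach 78.9% and the abundant genes 86.6%.

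The labelled cell type was checked against its markers. All 12 adipocyte markers were above the floor in both libraries, from 11.84 to 17.55 with DF and from 11.94 to 17.55 in the control, and summed to 784191.6 linear units with DF and 684249.5 in the control. Among them Pparg and Slc2a4 were slightly lower with DF, Lpl was equal, and the others were higher. The 7 preadipocyte and fibroblast markers, from 7.03 to 15.10 with DF and from 7.23 to 16.55 in the control, summed to 68891.0 with DF and 152483.6 in the control. All 7 were lower with DF, and the sums are led by Dlk1, the highest of them in both libraries (15.10 with DF and 16.55 in the control). The part of these marker differences in the differences of the folding genes was not tested. Fewer cells of a type and less RNA per cell cannot be told apart in bulk libraries. Of the markers of other cells, only Sdc1 was above the floor, at 9.75 with DF and 9.94 in the control; next came Krt18 (5.15 with DF and 7.31 in the control) and Pecam1 (2.83 with DF and 6.49 in the control). Of 6 macrophage markers, 4 were above 0 with DF and 3 in the control, with sums of 52.9 with DF and 28.5 in the control and Adgre1 at 0 in both. Of 5 endothelial markers, 2 were above 0 with DF and 1 in the control, with sums of 11.5 with DF and 89.7 in the control and Kdr, Tie1 and Tek at 0 in both. Of 5 epithelial markers, 2 were above 0 in each library, with sums of 55.6 with DF and 160.3 in the control and Epcam and Krt8 at 0 in both. Of 4 plasma cell markers, Jchain and Prdm1 were at 0 in both libraries, and the sums of 863.9 with DF and 994.1 in the control were almost wholly Sdc1, which other cells express too.

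Together the 40 genes held 1.73% of the sum of linear values in the DF library and 1.62% of it in the control library. The 4 transcription factors summed to 115520.1 linear units with DF and 95430.1 in the control, and the 7 disulfide enzymes to 45743.5 with DF and 38895.7 in the control. Genes of both groups lay on both sides of 0, and the sums follow a few abundant genes that did not reach 1.5-fold. Atf5 alone had 49022 units with DF and 33109 in the control, Atf4 had 39308 with DF and 31732 in the control, and Ero1l had 24548 with DF and 17953 in the control. These genes, Ddit3 and Hspa5 lie among the 140 highest values, which are identical in both libraries once sorted. Their linear values, and the sums they lead, therefore follow ranks on a shared scale and are not amounts. The 4 stress sensors summed to 2421.0 with DF and 3482.5 in the control, 0.52 log2 units lower. The 9 chaperones and partners of the Hsp70 and Hsp90 kind, whose sum is mostly Hspa5, differed by -0.02 log2 units. Whether the deposited values had been divided by transcript length is unknown here, so levels of different genes are not compared per length.

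**Figure D2:**
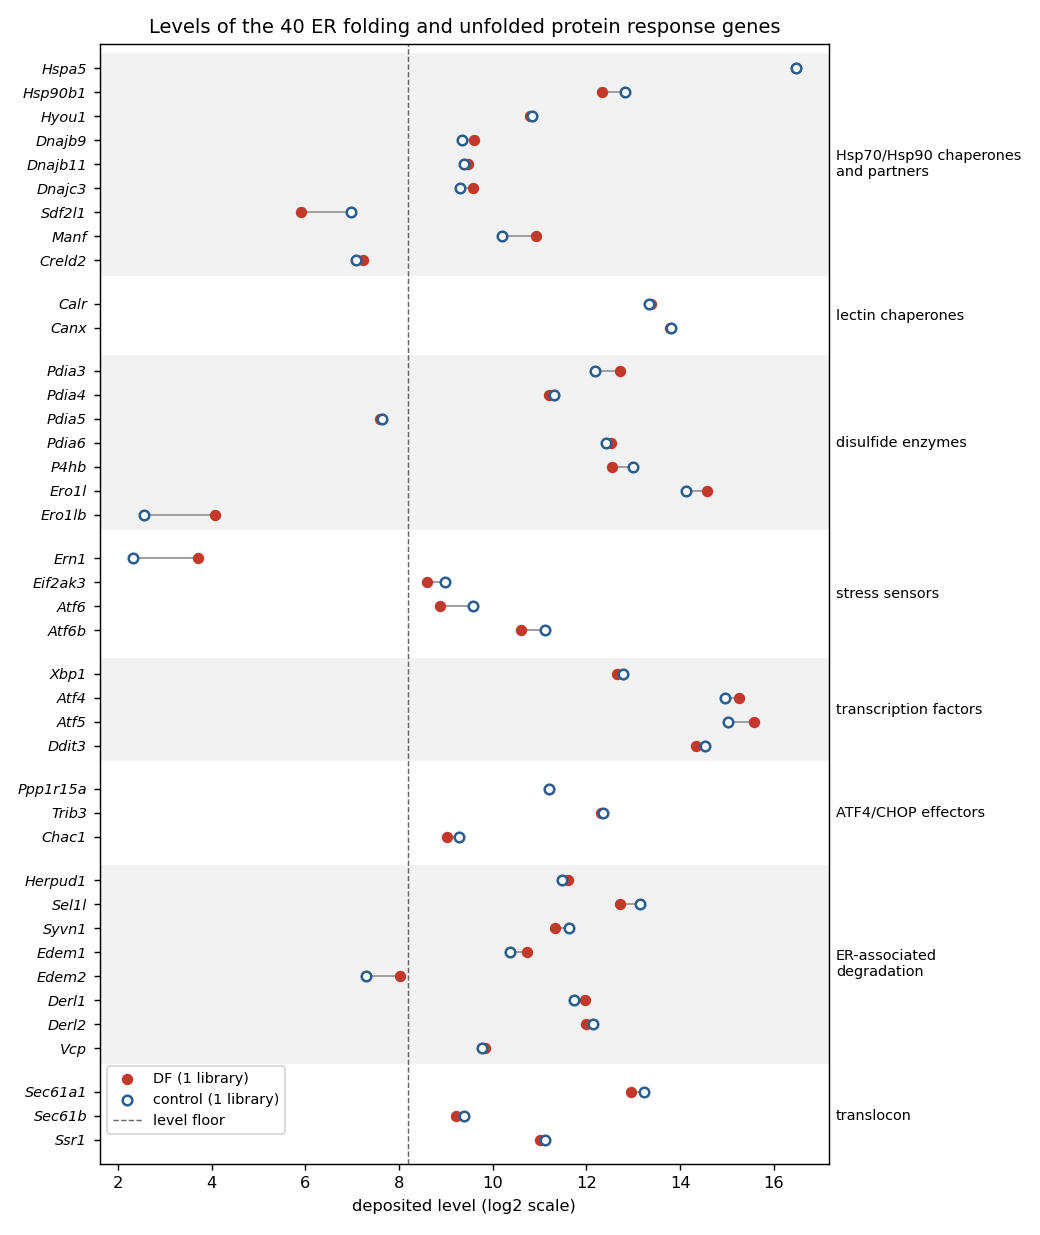
Deposited level of each of the 40 genes on the log2 scale (x axis) in the DF library (filled) and the control library (open), grouped by role down the page; each point is 1 library and the dashed line is the floor of 8.18. Most pairs of points overlap or nearly touch, and the widest gaps belong to Ero1lb, Ern1 and Sdf2l1, which lie below the floor.

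Among the chaperones of the ER lumen, Hspa5, which encodes BiP, the Hsp70 of the ER that also holds the stress sensors inactive, stood at 16.47 in the DF library and 16.47 in the control library, at rank 12 from the top in both. The highest 140 values, sorted, are identical in the 2 tables, so for Hspa5, Ero1l, Atf4, Atf5 and Ddit3, all among them, a value gives a rank only. Lower down, sorted values at equal rank differ by at most 0.05 log2 units at or above the floor, as after quantile normalization, so each fold given here is a shift in rank read on a shared scale. A change common to most genes would not be seen. Hsp90b1, which encodes GRP94, the ER member of the Hsp90 family, was at 12.34 with DF and 12.83 in the control, 1.41-fold lower. Its rank was 618 in the DF library and 391 in the control library. Hyou1, a nucleotide exchange factor for BiP, was at 10.81 with DF and 10.85 in the control. The genes of the J-domain partners of BiP were slightly higher or equal with DF. Dnajc3, which encodes p58IPK, was at 9.58 with DF and 9.31 in the control. Dnajb9, which encodes ERdj4, was at 9.60 with DF and 9.34 in the control, and Dnajb11, which encodes ERdj3, at 9.47 with DF and 9.40 in the control.

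Manf, a small BiP-binding protein that stressed cells also secrete, had the largest difference among the 34 genes. It was at 10.93 with DF and 10.20 in the control, 1.66-fold higher, and its rank was 1765 with DF and 2730 in the control. Hspa5 was equal in both libraries, so relative to Hspa5 the difference of Manf is its own, 0.73 log2 units, and adds nothing further. Manf lies on the minus strand at chr9:106838312-106891979 (GENCODE vM21, GRCm38). The last 500 bases of the annotated gene overlap exons of Dcaf1 on the other strand, and Rbm15b lies inside it on the same strand. Dcaf1, listed in the tables as Vprbp, was at 8.44 with DF and 8.48 in the control. Rbm15b was at 8.21 with DF and 9.01 in the control. Whether the reads of these genes were told apart from those of Manf was not tested. Creld2, another ER-stress-inducible protein of the lumen, was below the floor at 7.23 with DF and 7.09 in the control. Sdf2l1, a partner of ERdj3, was also below it, at 5.91 with DF and 6.97 in the control, a difference of -1.06 log2 units at a level where the scatter of all genes is wide.

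The cis elements through which ATF6 and XBP1 act on these genes were looked up in the promoters, to sort the 40 genes by a feature of their sequence that the values did not choose. The ER stress response element (ERSE) was searched as CCAAT, any 9 bases and then CCACG. The shorter ERSE-II was searched as ATTGG, any base and then CCACG. Both strands were read in RefSeq promoter windows of GRCm38.p6, from 250 bases before to 50 bases after each gene's start. A window was at hand for 35 of the 40 genes, not for Hyou1, Manf, Atf6, Derl1 and Sec61a1. The ERSE was present in 9 of the 35 (25.7%), against 0.119% of the 32851 promoter windows in the table, and ERSE-II in 2 of the 35, against 0.0365%. The first share of each pair counts genes and the second counts windows. The elements are ones already known to act on these genes, so a larger share among them was fixed beforehand and is no finding. The ERSE sites, with 10 flanking bases on each side and each read along the strand on which CCAAT comes first, were as follows; capitals mark the fixed letters.
Hspa5, chr2:34772015-34772053, plus strand: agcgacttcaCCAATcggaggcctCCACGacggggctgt
Hsp90b1, chr10:86705628-86705666, minus strand: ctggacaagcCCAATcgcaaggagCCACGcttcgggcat
Hsp90b1, chr10:86705523-86705561, plus strand: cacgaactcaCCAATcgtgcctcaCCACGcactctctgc
Calr, chr8:84847065-84847103, plus strand: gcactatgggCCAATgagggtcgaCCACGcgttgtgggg
Canx, chr11:50325790-50325828, minus strand: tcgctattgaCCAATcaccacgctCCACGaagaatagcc
Pdia6, chr12:17266481-17266519, plus strand: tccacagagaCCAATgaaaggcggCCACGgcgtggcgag
Ero1lb, chr13:12565672-12565710, minus strand: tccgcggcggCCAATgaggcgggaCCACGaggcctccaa
Dnajc3, chr14:118937817-118937855, plus strand: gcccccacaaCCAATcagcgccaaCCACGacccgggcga
Creld2, chr15:88819510-88819548, minus strand: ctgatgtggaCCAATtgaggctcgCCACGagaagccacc
Syvn1, chr19:6046522-6046560, plus strand: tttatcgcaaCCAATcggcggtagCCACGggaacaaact

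The ERSE-II sites, read and marked in the same way, were in these genes.
Dnajb11, chr16:22857842-22857872, plus strand: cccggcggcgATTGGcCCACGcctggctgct
Herpud1, chr8:94386367-94386397, plus strand: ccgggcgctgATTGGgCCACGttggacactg

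The Hspa5 site is shown within its whole promoter window, since this gene had the highest value of the 40 and its rank was the same in both libraries. The window is chr2:34771840-34772139 on the plus strand, written 5′ to 3′, with the fixed letters of the single exact ERSE in capitals, and the site begins 65 bases before the gene's start.
Hspa5 promoter: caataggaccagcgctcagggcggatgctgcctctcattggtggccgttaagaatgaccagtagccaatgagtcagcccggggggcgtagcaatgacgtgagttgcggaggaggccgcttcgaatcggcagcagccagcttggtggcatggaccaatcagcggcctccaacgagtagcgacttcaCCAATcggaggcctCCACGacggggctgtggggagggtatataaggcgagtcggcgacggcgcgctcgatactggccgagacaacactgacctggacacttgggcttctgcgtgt

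The 11 genes with an ERSE or ERSE-II had a median difference of 0.07 log2 units, with a range from -0.49 for Hsp90b1 to 1.52 for Ero1lb. The 24 genes with neither had a median of -0.07 and a range from -1.06 to 1.39. Of the 9 genes with an element that reached the floor, 0 differed by 1.5-fold in either direction, and so did 0 of the 20 with neither, against a background of 10.2% higher and 10.9% lower. Manf and Atf6, the genes past 1.5-fold, had no window, so these counts do not tell the groups apart. Creld2 and Ero1lb carry an ERSE and lay below the floor. Hsp90b1, the only gene with 2 exact ERSE sites, had the lowest difference of the 11. The shorter XBP1 site TGACGTGG was found in Vcp only (0.676% of all windows), and the composite site of C/EBP and ATF factors, searched as TGATGNAAT, in 0 of the 35 (0.965% of all windows). No 2 sites in the same promoter overlapped. A match of letters is a description of the window and does not show that a factor binds there.

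The lectin chaperones, which hold glycoproteins by their sugars, were the most nearly equal of the role groups. Calr, which encodes calreticulin, was at 13.38 with DF and 13.33 in the control. Canx, which encodes its membrane-bound relative calnexin, was at 13.79 with DF and 13.80 in the control. The annotation holds 1 named pseudogene of a member, Calr-ps, and how multiply matching reads had been assigned is unknown here.

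Among the disulfide enzymes, the differences pointed in opposite directions, and 0 of the 5 at or above the floor reached 1.5-fold. The shares of all genes examined were 10.2% higher and 10.9% lower, and 5 genes are too few to stand apart from them. The SD across these 5 was 0.40 log2 units, beside 0.33 across the 34 genes. All 5 had a mean level of at least 10, and across all genes at such levels the SD was 0.41. Pdia3, which encodes ERp57, the isomerase that works with the lectin chaperones, was at 12.72 with DF and 12.18 in the control, 1.46-fold higher. Ero1l (now Ero1a), the oxidase that recharges the isomerases and is known to aid the release of adiponectin from fat cells, was at 14.58 with DF and 14.13 in the control, 1.37-fold higher, and at rank 85 with DF and 121 in the control. P4hb, the classical protein disulfide isomerase and also a subunit of the collagen prolyl hydroxylase, was at 12.55 with DF and 12.98 in the control, 1.35-fold lower. Ero1l and P4hb stand on opposite sides of 0, and their log2 ratio was 2.03 in the DF library and 1.15 in the control library, a change of 1.85-fold. For Pdia3 over P4hb the log2 ratio was 0.17 with DF and -0.81 in the control, a change of 1.97-fold. These pairs were picked after their values were seen, as the largest changes among 12 pairs computed; the other pairs changed by 1.04-fold to 1.66-fold. Ero1l, Pdia3 and P4hb each lie inside the 1.5-fold limit. Pdia6 was at 12.52 with DF and 12.42 in the control, Pdia4 at 11.20 with DF and 11.30 in the control, and Pdia5, below the floor, at 7.59 with DF and 7.63 in the control. Ero1lb (now Ero1b), the second oxidase gene, was near the bottom of the scale at 4.08 with DF and 2.55 in the control.

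Genes of the stress sensors were lower with DF wherever they were measured above the floor. Atf6, which encodes the sensor that is cut in the Golgi to free a transcription factor, was at 8.88 with DF and 9.57 in the control, 1.61-fold lower, at rank 5024 with DF and 3768 in the control. Atf6b, its relative, was at 10.60 with DF and 11.11 in the control, 1.43-fold lower. Eif2ak3, which encodes the kinase PERK that slows translation, was at 8.59 with DF and 8.98 in the control, 1.31-fold lower. Only Atf6 of these 3 passed the 1.5-fold limit, against 10.9% of all genes. Ern1, which encodes IRE1, the sensor that splices the Xbp1 transcript, was near the bottom of the scale, at 3.71 with DF and 2.32 in the control (linear values of 13.1 with DF and 5.00 in the control), where a difference rests on a very small signal. Atf6 lies on the minus strand at chr1:170704674-170867771, and no coding gene overlaps it in the annotation.

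**Figure D3:**
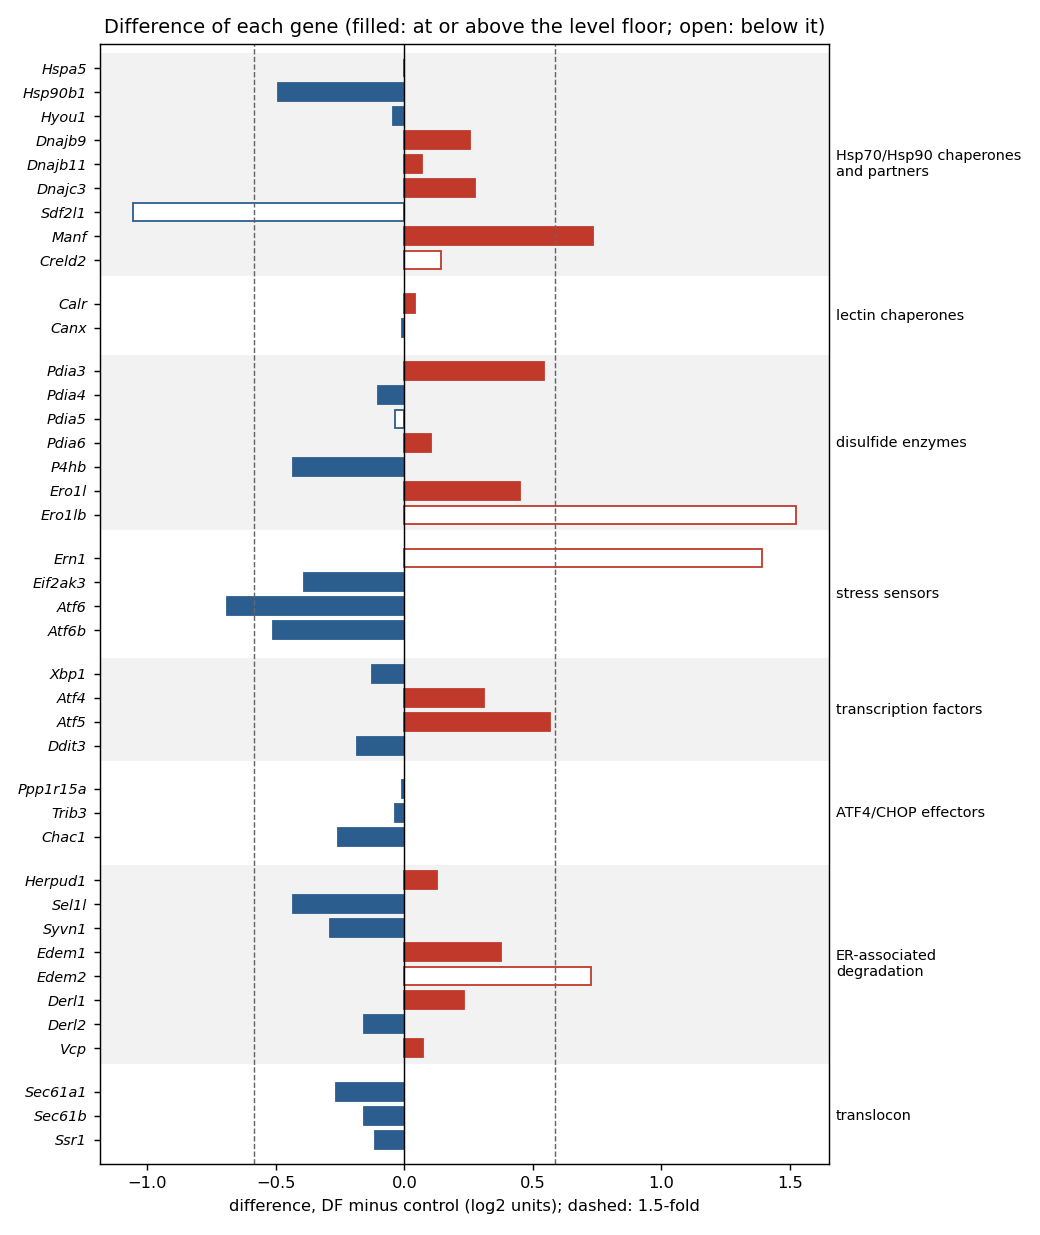
Difference of each of the 40 genes, DF minus control in log2 units (x axis), grouped by role; filled bars are genes at or above the floor, open bars those below it, and the dashed lines mark 1.5-fold. Manf and Atf6 are the filled bars that cross a dashed line; the longest bars, of Ero1lb (1.52), Ern1 (1.39) and Sdf2l1 (-1.06), are open.

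The transcription factors of the response were abundant in both libraries. Atf5, an ATF4-related activator that is induced when translation slows, was at 15.58 with DF and 15.01 in the control, 1.48-fold higher, just inside the limit of 0.58 log2 units. It stood at rank 32 with DF and 56 in the control. Atf4, the central activator of the integrated stress response, was at 15.26 with DF and 14.95 in the control, 1.24-fold higher, at rank 43 with DF and 59 in the control. Ddit3, which encodes CHOP, a C/EBP-like factor that ATF4 induces and that blocks other C/EBP proteins, was at 14.34 with DF and 14.52 in the control, 1.14-fold lower. Xbp1 was at 12.66 with DF and 12.79 in the control. Splicing of Xbp1 by IRE1, cleavage of ATF6 and the translation of Atf4 are the steps at which these factors are switched on, and none of them can be read from values per gene at transcript ends.

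The neighbours of these factors on the genome bear on their values, since the strand setting of the counting is unknown here. Ddit3, at chr10:127290774-127296288 on the plus strand, has exons of Mars, the methionyl-tRNA synthetase gene, on the other strand within its last 500 bases. Mars was at 14.20 with DF and 14.46 in the control, close to Ddit3 in both libraries, and whether the reads of the 2 genes were told apart was not tested. Atf5, at chr7:44812256-44816658 on the minus strand, overlaps Nup62 (8.43 with DF and 9.18 in the control) and Il4i1 (5.66 with DF and 3.60 in the control) on the other strand, both at far lower values. No exon of either lies in the last 500 bases of Atf5.

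The 3 listed effectors of ATF4 and CHOP differed little between the libraries, and none reached 1.5-fold. Past that limit lay 10.2% (higher) and 10.9% (lower) of all genes examined, so a count over 3 genes says little. Ppp1r15a, which encodes GADD34, the phosphatase subunit that restores translation, was at 11.20 with DF and 11.21 in the control. Trib3, a pseudokinase gene induced by CHOP, was at 12.31 with DF and 12.35 in the control. Chac1, a glutathione-degrading enzyme and a sensitive ATF4 target, was at 9.02 with DF and 9.27 in the control, 1.20-fold lower. All 3 differences were negative, and none was past 0.26 log2 units in size. Among 24 other genes of the integrated stress response, many of them ATF4 targets, 14 had positive and 10 negative differences; their median was 0.16 log2 units, and only Gdf15 passed 1.5-fold. Ppp1r15a shares its last 500 bases with exons of Tulp2 on the other strand, which was at 10.35 with DF and 9.91 in the control.

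**Figure D4:**
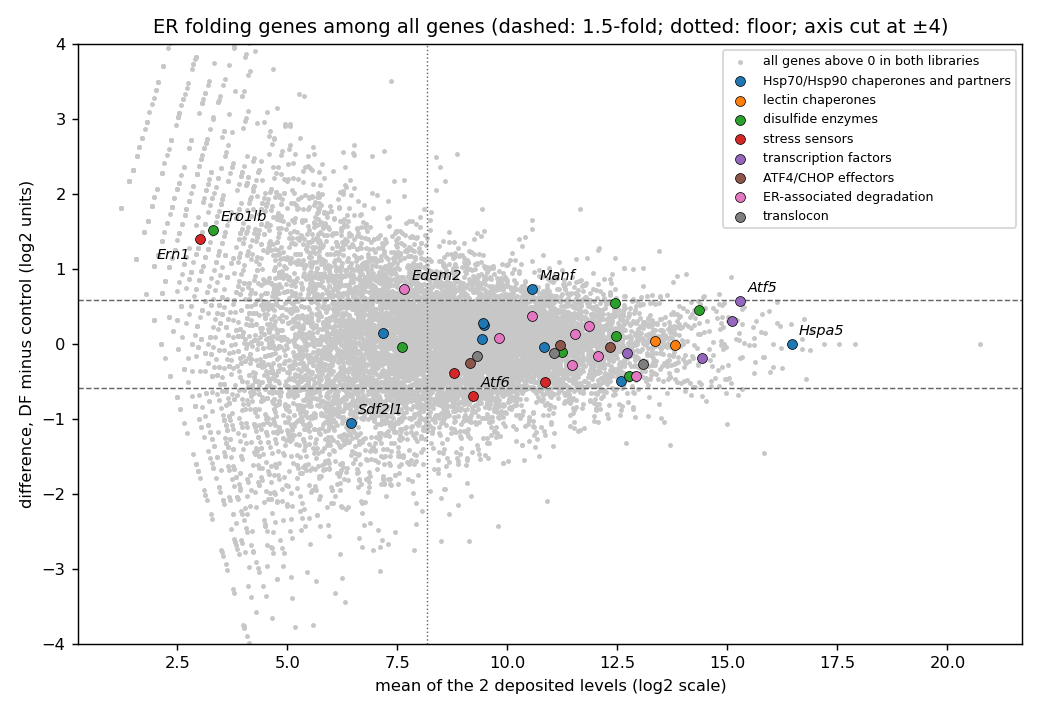
Mean of the 2 deposited levels (x axis, log2 scale) against the difference DF minus control (y axis, log2 units) for all genes above 0 in both libraries in grey and for the 40 folding genes coloured by role; dashed lines mark 1.5-fold, the dotted line the floor, and the y axis is cut at ±4. The scatter of all genes narrows towards high levels, and the folding genes at or above the floor lie inside it, from -0.69 for Atf6 to 0.73 for Manf.

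The ER-associated degradation genes were mixed and close to 0. Of 7 examined, 0 were higher and 0 lower by 1.5-fold, with 4 above 0 and 3 below. At that limit 10.2% of all genes examined were higher and 10.9% lower, and 7 genes are too few to stand apart from that. Sel1l, the adaptor of the membrane ubiquitin ligase, was at 12.71 with DF and 13.14 in the control, 1.35-fold lower. Syvn1, which encodes the ligase HRD1 itself, was at 11.33 with DF and 11.62 in the control, 1.22-fold lower, and its end overlaps Mrpl49 (9.76 with DF and 9.90 in the control) on the other strand. Herpud1, a scaffold of that ligase, was at 11.60 with DF and 11.47 in the control. Of the dislocation channel genes, Derl1 was at 11.96 with DF and 11.73 in the control, and Derl2 at 11.99 with DF and 12.15 in the control. Of the mannose-trimming factors, Edem1 was at 10.74 with DF and 10.36 in the control, 1.30-fold higher, and Edem2, just below the floor, at 8.02 with DF and 7.30 in the control, a difference of 0.73 log2 units. Vcp, the ATPase that pulls proteins out of the membrane, was at 9.84 with DF and 9.77 in the control.

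The translocon genes were slightly lower with DF, by at most 0.27 log2 units. Sec61a1, the pore of the channel, was at 12.96 with DF and 13.23 in the control. Sec61b, its small partner, was at 9.23 with DF and 9.38 in the control, and Ssr1, a subunit of the translocon-associated protein complex, at 11.01 with DF and 11.13 in the control.

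Other genes of the same pathway were read from 5 further lists, which share no gene with the 40. Of the 151 genes in them, 150 were in the tables and 126 reached the floor in at least 1 library. Of these, 10 were higher by 1.5-fold and 8 lower, against a background of 10.2% and 10.9%, and their median difference was 0.02 log2 units, beside 0.01 for all genes examined. Of the 10 higher genes, 5 reached the floor in both libraries; the others were examined only through the DF library.

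Among 36 other chaperones and folding enzymes, 3 were higher and 4 lower. Serpinh1, which encodes the collagen chaperone HSP47 and has the highest value of the list, was at 15.78 with DF and 16.16 in the control, and Calu, which encodes the calcium-binding protein calumenin, at 15.19 with DF and 15.39 in the control. Fkbp2, a prolyl isomerase gene, was 1.74-fold higher, and Sumf2, a relative of the sulfatase-modifying factor, 1.81-fold higher. Rcn2, which encodes a reticulocalbin, was 1.76-fold lower. In the other ER-associated degradation genes, 4 of 23 were higher and 1 lower, against 10.2% and 10.9% of all genes examined. Of these 4, only Vimp reached the floor in both libraries. Erlin2, a scaffold for degradation of sterol-regulated proteins, was at 9.43 with DF and 7.94 in the control, 2.81-fold higher. Ngly1, which removes sugars from dislocated proteins, was 1.95-fold higher. Man1b1, an ER mannosidase gene, was 1.70-fold lower. Ube2j2, a ubiquitin-conjugating enzyme gene, was at 13.44 with DF and 13.05 in the control, and Aup1, which acts at the ER and at lipid droplets, at 13.03 with DF and 12.56 in the control. Erlin2, Ngly1, Sumf2 and Herpud2, the remaining higher gene of the degradation list, were below the floor in the control library. They were examined only through the DF library.

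In the list of translocon, signal peptidase and oligosaccharyltransferase genes, 1 of 27 was higher and 3 lower. For this list and the next 2, the shares over all genes examined were 10.2% higher and 10.9% lower. Srp72 and Srp9, subunits of the signal recognition particle, were 1.79-fold and 1.68-fold lower, and Sec11c, a signal peptidase gene, was 2.08-fold higher from a control value below the floor. Sec61g was at 14.51 with DF and 14.81 in the control, and Rpn1, a subunit of the oligosaccharyltransferase, at 12.90 with DF and 12.98 in the control. In the integrated stress response list, 1 of 24 was higher and 0 lower, and the median of the 28 genes above 0 in both libraries was 0.16 log2 units. Gdf15, a secreted stress cytokine, was 1.65-fold higher, while Psat1, of serine synthesis, was at 13.24 with DF and 13.33 in the control and Slc7a5, an amino acid transporter gene, at 13.05 with DF and 12.77 in the control. In the list of regulators and death effectors, 1 of 16 was higher and 0 lower. Bax, a pore-forming death effector, was 1.67-fold higher, Tmbim6, which encodes BAX inhibitor 1, was at 15.69 with DF and 15.47 in the control, and Mbtps1, the first protease that cuts ATF6, was at 12.21 with DF and 12.19 in the control.

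**Figure D5:**
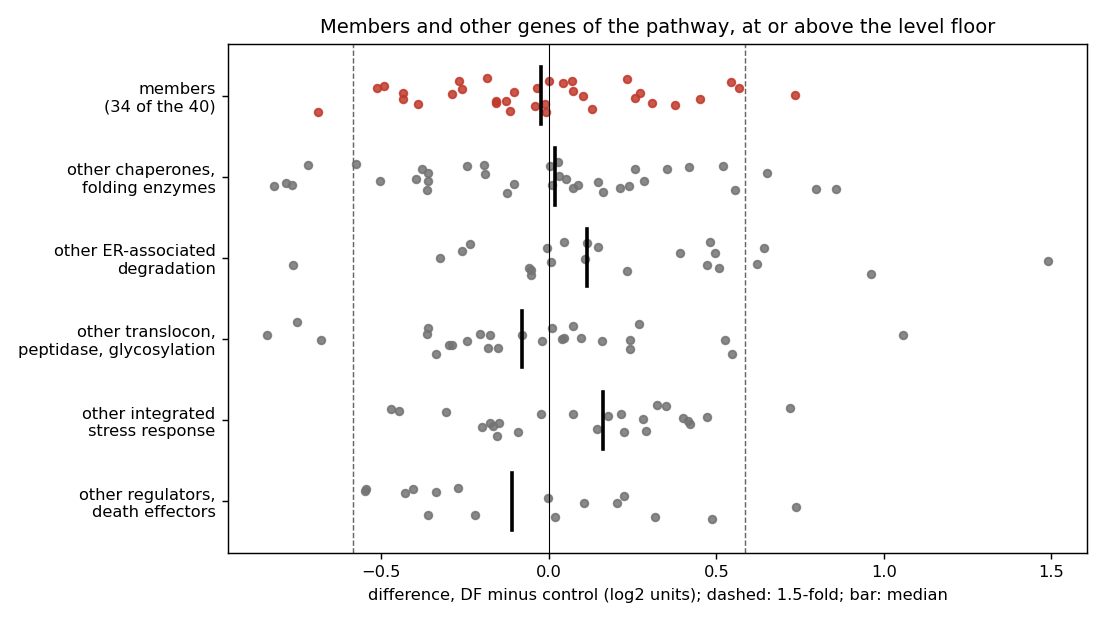
Difference of each gene at or above the floor, DF minus control in log2 units (x axis), for the 34 folding genes (top row) and the 5 further lists; points are spread at random within a row, bars are medians and dashed lines mark 1.5-fold. The medians run from -0.11 for the regulators and death effectors to 0.16 for the integrated stress response list, and every row is spread on both sides of 0.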

How the data were processed

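Messenger RNA of 3T3-L1 adipocytes was read in 1 DF and 1 control library. Per the labels' protocols, 500 ng of RNA per library went into a Lexogen 3' end preparation (the labels name both the SENSE 3' and the Quant-Seq kit), read at 75 nt. The deposited tables hold 1 log2 value per gene and library. Bowtie2, edgeR and mm10 appear in the submitters' processing notes, with no version; the normalization, annotation and strand setting are unknown here. The sorted values are almost the same in both libraries, as after quantile normalization, so a difference in total output cannot be seen. A value of 0 equals a linear value of 1. Depth is unknown, and no counting interval was computed.

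Differences are DF minus control, with no pseudocount. A gene was examined at or above the median non-zero value in at least 1 library and counted at 1.5-fold; no test was possible with 1 library per group. Named were all 40 members and, in each further list, the 2 most abundant genes and up to 3 with the largest difference past 1.5-fold. The members and lists were chosen with earlier results of these data known. All 40 genes matched GENCODE vM21 (2 through RefSeq synonyms). Python 3.11.15, pandas 2.3.3 and numpy 2.4.6 were used. The counting code was run on simulated data with large shifts and little noise. That run checks the code only and does not bear on how reliable the counts in these data are. Alternatives were pseudocounts, floors, scalings, fold limits, leaving out overlapping genes, and reading motifs on 1 strand.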

Additional observations from a re-analysis of the deposited data

How the results depend on the processing

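The main counts (1 folding gene higher and 1 lower by 1.5-fold, 10 and 8 in the further lists) stayed within 1.5 times under pseudocounts of 1, 8 and 32 on the linear scale, the floor set on the mean level, and the 3 other scalings. With the floor reached in both libraries, 5 genes of the further lists were higher. With no floor, 4 folding genes were higher and 2 lower, the added ones being Ero1lb, Ern1, Edem2 and Sdf2l1. In the further lists 13 genes were then higher and 13 lower. At 2-fold, 0 folding genes were higher and 0 lower, with 2 and 0 in the further lists, against 5.77% of all genes in either direction. At the looser limit of 0.32 log2 units the counts were 5 and 6, with 28 and 27 in the further lists. Inside that looser limit lay 67.6% of the 34 folding genes and 51.6% of all genes examined, so fewer folding genes than genes in general were past it. Without genes that overlap another annotated gene, 17 of the 34 folding genes were left, 0 higher and 0 lower, with 6 and 4 in the further lists, since Manf and Atf6 both overlap another gene. No share over all genes was computed with the floor reached in both libraries, with no floor or without overlapping genes. The counts at those settings thus have no background beside them. At a mean level of at least 10, a limit chosen after seeing the data, 0 folding genes were lower, since Atf6 lies below that level. The median difference of the members stayed between -0.02 and -0.01 log2 units under each alternative run, and no difference past 1.5-fold changed sign. Reading the sense strand only left 6 of the 9 genes with an ERSE. No paired analysis was possible because each group holds 1 library. The unknown depth and the single library per group limit every value, most of all those below the floor.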

Other observations

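Promoter windows of 38 other genes held an ERSE or ERSE-II. Of these, 28 were in the tables and 11 reached the floor in at least 1 library, 2 of them higher by 1.5-fold with DF and 1 lower, with a median difference of -0.27 log2 units. Over all genes examined 10.2% were higher and 10.9% lower, and 11 genes are too few to stand apart from that. The lower gene was Lgalsl (8.39 with DF and 9.07 in the control, 1.60-fold). Acacb, the acetyl-CoA carboxylase of the mitochondrial surface, was at 9.62 with DF and 8.78 in the control, 1.78-fold higher. Alg12, a mannosyltransferase gene of the glycan precursor made in the ER, was at 8.31 with DF and 7.06 in the control, 2.37-fold higher and below the floor in the control. Its window holds the same ERSE as that of Creld2, at chr15:88819520-88819538 between these genes, which run in opposite directions. Creld2, at 7.23 with DF and 7.09 in the control, was below the floor in both libraries and did not differ by 1.5-fold. The 2 genes on either side of this element had differences of 1.24 (Alg12) and 0.14 (Creld2) log2 units. Both differences rest on at least 1 value below the floor, so they are not set against each other.

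Atf3, an early factor of the integrated stress response, was at 5.83 with DF and listed at 0 in the control. Fgf21, a hormone gene that ATF4 induces in liver and fat, was listed at 0 with DF and at 4.69 in the control. Both lay below the floor in both libraries and were named after their values were seen.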
